A study of Mus musculus with 24 samples.

Results

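The genes described here are the 52 members of the Wnt pathway that act outside the cell or at its surface, chosen by their symbols: 19 Wnt ligands, 10 frizzled receptors (Fzd1 to Fzd10), 5 co-receptors and other receptors (Lrp5, Lrp6, Ror1, Ror2 and Ryk), 9 secreted antagonists, 4 R-spondins with their 3 Lgr receptors, and Porcn and Wls, which act on the ligands inside the producing cell. They were found among the 49705 gene entries of the RNA-seq table. Fzd6 is listed a second time with the same values on a patch sequence and was counted once. Of the 52 genes, 50 were tested, along with all others of the 21005 entries that reached 10 normalized counts in 3 or more libraries. Wnt10a and Dkk4 stayed below that filter. Of the 50 tested genes, 12 were under 10 in all 3 libraries of at least 1 group, so they passed the filter through the groups in which they were high.

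RNA was measured in optic vesicle (OV) organoids made from mouse embryonic stem cells of a single line, Rx-GFP K/I EB5, in which GFP is knocked in at the Rax locus and reports this eye field gene. Every group carries that reporter, the labels give no treatment, and the groups differ in the day, the sort and, for day 0, the culture. Sorted live cells were taken on day 0, when the stem cells were seeded to form organoids, and on days 1, 2 and 3, with Matrigel in the medium from day 1. On days 4 and 5 the live cells were split into GFP-positive and GFP-negative cells, which gave 8 groups of 3 libraries and 24 libraries in all. Each library came from a pool of organoids. The GFP-negative gate can hold cells with little GFP, and the day 3 cells were not split by GFP. In libraries made from bulk RNA, fewer cells of a type and less RNA per cell cannot be told apart.

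The libraries held 39849111 to 51587535 normalized counts each, and 1 read was worth about 0.7998 to 1.39 normalized counts, so a value near 10 rests on about as many reads. Rank correlations between replicates were 0.979 to 0.993 outside the pairs of day 0 replicate 1, which stood apart at 0.953 to 0.954. The 5 eye field markers Rax, Pax6, Lhx2, Six3 and Six6 were all called higher in GFP-positive cells on both days, with summed normalized counts of 45893 to 47745 against 8869 to 10833 on day 4 and 54804 to 57307 against 8351 to 9094 on day 5. All 6 pluripotency markers, all 7 mesendoderm markers and 4 of 6 midbrain and hindbrain markers were called lower in GFP-positive cells on both days, while another of the latter, Pax2, was called higher on day 5. So were 4 of 5 surface ectoderm and neural crest markers and 2 of 4 endothelial markers called lower on each day, though not the same ones. The endothelial markers were Kdr and Pecam1 on day 4 and Cdh5 and Tal1 on day 5. Of the surface ectoderm and neural crest markers, Tfap2a was called on day 4 only and Sox10 on day 5 only. On day 4 the mesendoderm sum was 6500.3 to 9676 in GFP-negative and 329 to 714 in GFP-positive cells, the midbrain and hindbrain sum 5011 to 6451 and 3597 to 3966, and the pluripotency sum 13702 to 16412 and 1205 to 2510.4. On day 5 these sums were 3354 to 4289 and 209 to 291, 7708 to 9782 and 4882 to 5448, and 6037 to 7296 and 409 to 539.7. The midbrain and hindbrain sum includes Pax2, which was called higher than day 3 in both day 4 gates. The median gate difference over that list was -2.97 on day 4 and -3.23 on day 5 on the log2 scale. The surface ectoderm and neural crest sum was 2126 to 2182 in GFP-negative and 391 to 551 in GFP-positive cells on day 4 and 1399 to 1909.8 and 291 to 359 on day 5, and the endothelial sum 908 to 1803 and 124 to 225, then 1510.2 to 2269 and 703 to 875. No marker on these lists was at 0 in all 3 libraries of a group. These cell mixtures moved with every difference between the gates given here, and their part in it was not tested.

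Wnt ligands are secreted glycoproteins to which Porcn adds a lipid and which Wls carries to the cell surface. There they bind a frizzled together with Lrp5 or Lrp6, which stabilises beta-catenin and lets it act with TCF/LEF factors on target genes, or they act through Ror1, Ror2 and Ryk. Sfrp proteins, Frzb and Wif1 bind the ligands, Dkk1 blocks the Lrp co-receptors, and R-spondins act through Lgr receptors to keep frizzleds on the membrane. In the early neural plate Wnt signalling is known as a posteriorizing influence, and the eye field arises at the front of the plate near sources of Wnt antagonists.

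Promoter sequences from RefSeq (GRCm38.p6, the same assembly as mm10) were given for 35 of the 52 genes, with 38 starts. The letters CTTTGAT and CTTTGAA, the core of sites bound by TCF/LEF factors, were searched on both strands from 250 bases before to 50 after each start. They were present in 3 of the 38 member promoters (7.9%) and in 2842 of all 32851 promoters of the table (8.7%). The matches lay before the RefSeq starts of Dkk1 and Wnt11 and before the start of Wnt5b that is farthest downstream of its 3, and the table of counts does not tell which start is used. These matches are shown in capitals with 10 bases on each side, 5′ to 3′ on the strand of the gene, because Dkk1 and Wnt5b are among the members with the largest rises on day 4. The Dkk1 match (chr19:30549597-30549623, minus strand) lies inside the gene as the table of counts gives it, in its annotated first exon, since the RefSeq start used is 169 bases downstream of that gene's start, the Wnt5b match (chr6:119449441-119449467, minus strand) outside every exon, and the Wnt11 match (chr7:98835051-98835077, plus strand) just before its start, where the capitals read the reverse complement of CTTTGAT.
Dkk1: cctcccaaagCTTTGAAatcccatccc
Wnt5b: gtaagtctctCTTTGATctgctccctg
Wnt11: acgtgggcggATCAAAGcgacggtccg

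For comparison, the 250 bases before the start of Wnt8b, the ligand with the largest rise, and of Fzd1, the one member called higher in GFP-positive cells on both days, hold neither core. They are shown in lower case for chr19:44493222-44493471 (plus strand) and chr5:4758217-4758466 (minus strand). The RefSeq start used for Fzd1 lies 181 bases upstream of the start of the gene in the table of counts, outside the transcripts of Fzd1 in GENCODE M21. A match or its absence describes these letters only.
Wnt8b: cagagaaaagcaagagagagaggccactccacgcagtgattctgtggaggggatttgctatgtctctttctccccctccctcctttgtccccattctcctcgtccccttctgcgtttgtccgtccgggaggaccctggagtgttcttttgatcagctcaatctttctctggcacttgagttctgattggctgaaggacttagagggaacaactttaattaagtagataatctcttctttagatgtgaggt
Fzd1: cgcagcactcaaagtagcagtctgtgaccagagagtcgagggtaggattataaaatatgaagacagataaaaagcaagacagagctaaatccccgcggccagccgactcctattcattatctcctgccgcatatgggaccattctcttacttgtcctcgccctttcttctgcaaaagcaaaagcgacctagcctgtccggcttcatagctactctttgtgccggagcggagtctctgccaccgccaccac

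A gene was called where the Benjamini-Hochberg adjusted p over all genes tested was under 0.001 and the absolute log2-fold-change above 1.5, with limma on log2(normalized count + 1) in a fit of all 24 libraries, and log2-fold-changes are given ± standard error. The added 1 understates the change of genes with few counts. Of the 50 tested members, 40 were called in at least 1 of 11 comparisons. The share of all tested genes called in at least 1 of them was not counted, so this number is no result about the members. Few passed both thresholds at first. Between days 0 and 1 a single member rose and 1 fell, where 0.343% of all tested genes rose and 0.395% fell, and between days 1 and 2 members counted 0 rises and 1 fall (0.943% and 0.528% of all genes). Below the thresholds, the 18 tested ligands had a median log2-fold-change of -1.02 between days 0 and 1, against -0.00123 for all tested genes. From day 2 to day 3, 6 members rose and 0 fell (0.714% and 0.290% of all genes), and over days 0 to 3 together 13 rose and 3 fell (5.91% and 6.12% of all genes). The widest changes came on day 4. Against day 3, 13 members were higher and 6 lower in the GFP-positive cells (3.33% and 7.36% of all genes), and 17 were higher and 0 lower in the GFP-negative cells (2.00% and 0.871% of all genes). These comparisons share the day 3 libraries. Between the gates 3 members were higher and 12 lower in GFP-positive cells on day 4 (0.328% and 3.63% of all genes), and 5 were higher and 15 lower on day 5 (0.400% and 4.61% of all genes). From day 4 to day 5, 5 members rose and 3 fell in the GFP-positive cells (0.595% and 0.890% of all genes), and as many did in the GFP-negative cells (0.762% and 0.509% of all genes). Wnt7a is among the 6 lower members on day 4 and is listed at 0 there, so its fitted value is no measure of size. The median difference between the gates over the 50 members was -0.56 on day 4 and -0.79 on day 5 on the log2 scale, against 0.00675 and -0.00169 over all tested genes. Of the 112 member changes called in all, 54 remained under every alternative setting tried, and 50 were lost when only the libraries of the groups compared entered the fit. Such a fit has fewer libraries to estimate the spread and uses the spread of those groups alone, and why the calls were lost was not tested. With a pseudocount of 0.5 or 5 in place of 1, 12 were lost, of Fzd10, Rspo2, Sfrp5, Wnt1, Wnt10b, Wnt16, Wnt2, Wnt6, Wnt7a, Wnt8a and Wnt8b. Quantile normalization ended 14, of Fzd10, Lgr5, Lgr6, Rspo2, Wnt16, Wnt2b, Wnt3, Wnt3a, Wnt4, Wnt6, Wnt8b and Wnt9a. Over days 0 to 3, the calls lost with only the groups compared were of Wnt5a, Wnt6, Wnt7b, Fzd1, Fzd3, Frzb, Rspo3, Rspo4, Lgr5 and Wls.

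**Figure D1:**
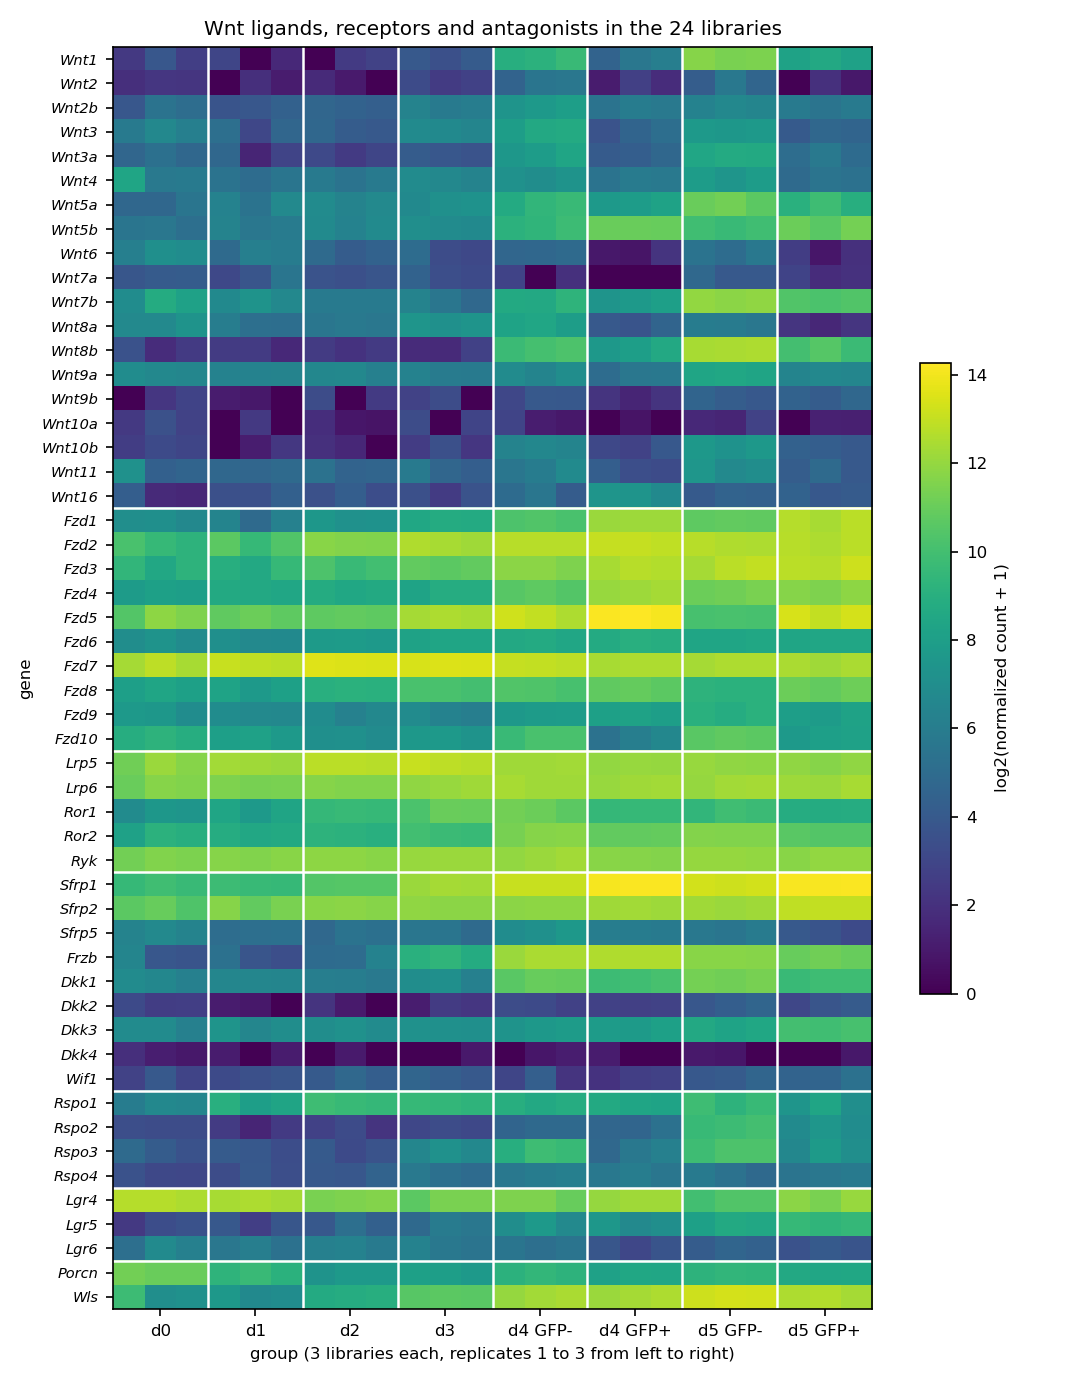
Heat map of log2(normalized count + 1) of the 52 members (rows, ordered by role, with lines between roles) in the 24 libraries (columns, grouped by day and gate). Most ligand rows are dark until day 3, and Wnt1, Wnt7b and Wnt8b are brightest in the day 5 GFP-negative libraries, whereas Fzd2, Fzd7, Lrp5, Lrp6 and Ryk are bright throughout.

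Among the 18 ligands tested, 9 were called lower and 1 higher in GFP-positive cells on day 4. Wnt1, a ligand of the midbrain and its border with the hindbrain, stood at 14.6, 10.2 and 16.1 normalized counts in the 3 libraries of day 3. It reached 491, 578 and 818 in day 4 GFP-negative cells (log2-fold-change 5.41 ± 0.65, adjusted p = 3.88e-06) and 22.7, 49.5 and 67 in GFP-positive cells. Every GFP-negative library was thus above every GFP-positive one (log2-fold-change -3.83 ± 0.65, adjusted p = 0.000187). On day 5 it stood at 3304, 2687 and 2794 in GFP-negative and 302, 387 and 289.5 in GFP-positive cells, again without overlap, although this difference of -3.17 missed the p threshold (adjusted p = 0.0012). The day 4 gate call was lost without GFP-negative replicate 2, GFP-negative replicate 3 or GFP-positive replicate 1, at -3.39 to -3.87. It was also lost with a pseudocount of 0.5 in place of 1 (-3.84, adjusted p = 0.00175) and with only the 2 gates in the fit.

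Wnt10b, the neighbour of Wnt1 on chromosome 15, followed the same course at lower counts. Wnt1 lies at positions 98789857 to 98793837 on the plus strand and Wnt10b at 98770712 to 98778150 on the minus strand, 11.706 kb apart. Wnt10b was at 4.81, 10.4 and 3.72 on day 3, at 83.5, 97.7 and 85.5 in day 4 GFP-negative cells (log2-fold-change 3.72 ± 0.52, adjusted p = 2.38e-05) and at 7.5, 6.03 and 14.1 in GFP-positive cells (log2-fold-change -3.21 ± 0.52, adjusted p = 0.000111). On day 5 the values were 195, 155 and 196 and 20.4, 18.02 and 14.9 (log2-fold-change -3.29 ± 0.52, adjusted p = 7.58e-05). Both genes of the pair were therefore far higher in GFP-negative cells on both days, although the day 4 call of Wnt10b was lost without GFP-positive replicate 2 (-2.98), with a pseudocount of 0.5 in place of 1 (-3.29, adjusted p = 0.00117) and with only the 2 gates in the fit.

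Wnt8b, a ligand of the dorsal forebrain and midbrain, had the largest change of all members. It was almost silent on days 0 to 3, at 2.44, 2.28 and 5.7 on day 3. On day 4 it stood at 865, 1077 and 1261 in GFP-negative cells (log2-fold-change 7.96 ± 0.38, adjusted p = 9.25e-12) and at 195, 256 and 393 in GFP-positive cells (log2-fold-change 6.001 ± 0.38, adjusted p = 5.55e-11), so that both populations had gained it. As the day 3 values are close to single reads, these fitted changes depend on the added 1. GFP-positive cells had less of it on day 4 (log2-fold-change -1.96 ± 0.38, adjusted p = 0.000707), a call just past the p threshold that was lost with a replicate block (adjusted p = 0.00142), quantile normalization (0.0014) or no trend (0.0012). By day 5 Wnt8b reached 5504, 5685 and 5966 in GFP-negative cells (log2-fold-change 2.44 ± 0.38, adjusted p = 0.000174) against 1037, 1468 and 847 in GFP-positive cells (log2-fold-change -2.39 ± 0.38, adjusted p = 7.38e-05), a wider gap without overlap. The day 4 gate call was lost without any 1 of 5 of its 6 libraries, all but GFP-positive replicate 3 (-1.73 to -2.11), and the rise in GFP-negative cells from day 4 to day 5 without any of the 6 but day 4 GFP-negative replicate 3 (2.29 to 2.46).

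Wnt3 and Wnt3a, ligands of the primitive streak and the dorsal neural tube that act through beta-catenin, were low in GFP-positive cells on both days. Wnt3 was at 26.4, 17.1 and 14.9 on day 2 and 112, 107 and 88.3 on day 3 (log2-fold-change 2.37 ± 0.43, adjusted p = 0.00087). On day 4 it stood at 249.8, 392 and 431 in GFP-negative cells and 11.4, 22.9 and 35.2 in GFP-positive cells (log2-fold-change -3.99 ± 0.43, adjusted p = 8.14e-07), the latter also below day 3 (log2-fold-change -2.23 ± 0.43, adjusted p = 0.00031). On day 5 the gates held 203, 186 and 207 and 15.5, 26.5 and 23.5 (log2-fold-change -3.16 ± 0.43, adjusted p = 1.37e-05). The gate difference of Wnt3 thus separated all libraries on both days. Its rise on day 3 was lost with a replicate block (adjusted p = 0.00167) and without any 1 of the 6 libraries (2.21 to 2.60), and its fall from day 3 in GFP-positive cells without day 3 replicate 1 or 2 or GFP-positive replicate 1 or 2 (-1.81 to -2.28).

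Wnt3a was at 17.1, 13.7 and 11.4 on day 3 and rose to 185, 238 and 329.7 in day 4 GFP-negative cells (log2-fold-change 4.04 ± 0.51, adjusted p = 6.62e-06). GFP-positive cells stood at 15.9, 18.3 and 26.6 (log2-fold-change -3.56 ± 0.51, adjusted p = 2.45e-05 between the gates). On day 5 the values were 351, 416 and 404 in GFP-negative and 32.7, 54.03 and 30.8 in GFP-positive cells (log2-fold-change -3.33 ± 0.51, adjusted p = 4.84e-05), a call lost with quantile normalization (adjusted p = 0.00103). Wnt3 and Wnt3a each lie beside another Wnt gene on chromosome 11, at 24.328 kb from Wnt9b and 16.175 kb from Wnt9a. Of these partners, Wnt9b was called in no comparison, with group means from 0.681 to 21.5. Wnt9a was called only in comparisons of day 5, where it was lower in GFP-positive cells, as Wnt3a was.

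Wnt9a stood at 118, 86.98 and 125 in day 4 and 333, 366 and 320.3 in day 5 GFP-negative cells (log2-fold-change 1.63 ± 0.20, adjusted p = 1.2e-05). In day 5 GFP-positive cells it was at 87.2, 99.9 and 92.2 (log2-fold-change -1.86 ± 0.20, adjusted p = 5.53e-07), a difference that was -1.49 and no longer called with quantile normalization. The rise was lost without day 4 GFP-negative replicate 2 (1.47).

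Wnt8a, a ligand of the early embryo and its primitive streak, was present from day 0 on and was down to a few reads in GFP-positive cells by day 5. It was at 103, 104 and 161 on day 0, 20.7% ± 6.3 (SD, n = 3) of the summed ligand counts per kb of exon, and at 65.7, 36.8 and 34.8 on day 1. It stood at 47.03, 53.5 and 50.05 on day 2 and 172, 145 and 168 on day 3 (log2-fold-change 1.66 ± 0.28, adjusted p = 0.000395), when its share of the ligands was 31.1% ± 3.4. Days 0 and 3 overlapped (0.42, adjusted p = 0.24). On day 4 it stood at 315, 351 and 244 in GFP-negative cells and at 14.8, 11.9 and 23.2 in GFP-positive cells (log2-fold-change -4.14 ± 0.28, adjusted p = 1.33e-09), which were also below day 3 (log2-fold-change -3.25 ± 0.28, adjusted p = 7.1e-09). By day 5 it had fallen to 61.6, 61.5 and 49.2 in GFP-negative cells (log2-fold-change -2.37 ± 0.28, adjusted p = 7.89e-06) and 3.65, 1.98 and 3.62 in GFP-positive cells (log2-fold-change -2.09 ± 0.28, adjusted p = 2.72e-05). The last values are a few reads, so these sizes depend on the added 1, and with a pseudocount of 5 the fall in GFP-positive cells was -1.39 and no longer called. The gates did not overlap on either day (log2-fold-change -3.86 ± 0.28, adjusted p = 2.58e-09 on day 5). The rise on day 3 was lost without any 1 of the 6 libraries (1.62 to 1.74).

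Wnt2, Wnt2b, Wnt4 and Wnt6 were each called lower in GFP-positive cells on at least 1 of the 2 days. Per kb of exon their mean share of the summed ligand level was at most 3.12% in any group of days 4 and 5, whereas on day 0 Wnt6 had held 14.5% ± 4.4 and Wnt4 10.5% ± 12, and on day 3 Wnt2b 5.35% ± 0.5. Wnt2 was at 21.9, 46.2 and 50.6 in GFP-negative and 1.14, 5.5 and 2.58 in GFP-positive cells on day 4 (log2-fold-change -3.38 ± 0.61, adjusted p = 0.000355), and at 17.3, 51.3 and 23.8 and 0, 2.96 and 0.905 on day 5 (log2-fold-change -3.87 ± 0.61, adjusted p = 6.72e-05). Since the GFP-positive values are a few reads or fewer, the fitted size depends on the added 1. The day 4 call of Wnt2 was lost without GFP-negative replicate 2 or 3 or GFP-positive replicate 1 or 3 (-2.99 to -3.36).

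Wnt2b, which is made in the dorsal midline and later at the eye margin, stood at 83.6, 55.4 and 64.1 on day 3 and 166, 206 and 259 in day 4 GFP-negative cells (log2-fold-change 1.62 ± 0.31, adjusted p = 0.000795), against 41.7, 62.7 and 53.7 in GFP-positive cells (log2-fold-change -1.97 ± 0.31, adjusted p = 8.99e-05). Its day 5 values were 80.1, 98.9 and 88.2 in GFP-negative and 54.97, 44.7 and 54.8 in GFP-positive cells, a difference of -0.78, adjusted p = 0.106. The rise was lost without any 1 of the 6 libraries (1.46 to 1.78), and the gate call without GFP-negative replicate 3 or GFP-positive replicate 1 (-1.81 to -1.82). The gates did not overlap on either day for Wnt2b, but only the day 4 difference was called.

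Wnt6 was highest in the stem cells, at 69.6, 137 and 120.02 on day 0, and fell to 31.6, 9.03 and 7.53 on day 3 (log2-fold-change -2.91 ± 0.51, adjusted p = 9.54e-05). It was at 25.5, 26.6 and 29.7 in GFP-negative and 0.906, 0.729 and 3.45 in GFP-positive cells on day 4 (log2-fold-change -3.53 ± 0.51, adjusted p = 3.25e-05), and at 42.9, 32.3 and 52.2 and 5.08, 0.786 and 2.88 on day 5 (log2-fold-change -3.62 ± 0.51, adjusted p = 2.08e-05). GFP-positive cells thus held about a read or a few, below every day 3 library (log2-fold-change -2.52 ± 0.51, adjusted p = 0.000474), and the fitted sizes depend on the added 1. The fall to day 3 was lost without day 3 replicate 2 or 3 (-2.55 to -2.66), and the fall from day 3 without day 3 replicate 1 or GFP-positive replicate 1 or 2 (-1.92 to -2.34). Its neighbour Wnt10a, 6.193 kb away on chromosome 1, did not pass the filter, at 0 to 10.5 over all libraries.

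Wnt4 stood at 237, 171 and 236 in day 5 GFP-negative and 29.1, 43.97 and 38.9 in GFP-positive cells (log2-fold-change -2.50 ± 0.44, adjusted p = 0.000243), a call that was lost with quantile normalization (adjusted p = 0.00445) and without replicate 1 or 3 of either gate (-2.33 to -2.54). On day 4 the values were 146, 125 and 163 and 42.02, 59.6 and 53.2 (-1.47, adjusted p = 0.0241). Day 0 replicate 1 held 337 of Wnt4 against 53.2 and 57.7 in its mates.

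The non-canonical ligands Wnt5a and Wnt5b, which are known for signalling through Ror receptors, went opposite ways between the gates. Wnt5b was at 131, 116 and 109 on day 3 and rose to 2088, 2074 and 1977 in day 4 GFP-positive cells (log2-fold-change 4.10 ± 0.20, adjusted p = 1.15e-12), more than to 588, 641 and 881 in GFP-negative cells (log2-fold-change 2.54 ± 0.20, adjusted p = 1.31e-08). It was the only ligand called higher in the GFP-positive gate in either comparison of the gates (log2-fold-change 1.56 ± 0.20, adjusted p = 6.32e-06 on day 4). Per kb of exon it made up 73.5% ± 4.8 (SD, n = 3) of the summed ligand level in day 4 GFP-positive cells, against 16.5% ± 1.1 in GFP-negative cells. On day 5 the values were 2131, 1606 and 2473 and 969.5, 824 and 959, which did not overlap (1.15, adjusted p = 0.000203). The day 4 gate call was lost without GFP-negative replicate 1 (1.44).

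Wnt5a rose from 26.6, 26.8 and 45.002 on day 0 to 110.4, 143 and 152 on day 3 (log2-fold-change 2.04 ± 0.31, adjusted p = 1.9e-05) and to 419, 672 and 804 in day 4 GFP-negative cells (log2-fold-change 2.18 ± 0.31, adjusted p = 3.42e-05). By day 5 Wnt5a reached 2044, 2451 and 1612 there (log2-fold-change 1.72 ± 0.31, adjusted p = 0.000859) against 529, 925 and 494 in GFP-positive cells (log2-fold-change -1.69 ± 0.31, adjusted p = 0.000449). The GFP-negative libraries were above the GFP-positive ones on both days, with 202, 239 and 293 in GFP-positive cells on day 4 (-1.33, adjusted p = 0.00457). The day 5 gate call was lost without replicate 1 or 2 of GFP-negative or replicate 1 or 3 of GFP-positive cells (-1.52 to -1.67), and the rise from day 4 to day 5 with a replicate block (adjusted p = 0.0011) and without any 1 of the 6 libraries (1.45 to 1.92).

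Wnt7b and Wnt16 rose in GFP-positive cells on day 4 and then parted. Wnt7b, a canonical ligand of the forebrain, fell from 122, 435 and 292 on day 0 to 83.3, 46.9 and 27.6 on day 3 (log2-fold-change -2.36 ± 0.36, adjusted p = 1.72e-05). It then rose in both populations, to 166, 213 and 261 in day 4 GFP-positive cells (log2-fold-change 2.12 ± 0.36, adjusted p = 6.95e-05) and 405, 399 and 623 in GFP-negative cells (log2-fold-change 3.26 ± 0.36, adjusted p = 1.42e-06). On day 5 it reached 1336, 1187 and 1376 (log2-fold-change 2.62 ± 0.36, adjusted p = 3.64e-05) and 4042, 3564 and 3914 (log2-fold-change 3.04 ± 0.36, adjusted p = 7.97e-06). With only the groups compared in the fit, the calls of Wnt7b were lost, except its rise in GFP-negative cells from day 4 to day 5. Its gate difference of -1.56, adjusted p = 0.00345 on day 5 was past the fold threshold and short of the p threshold.

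Wnt16 was at 10.1, 4.53 and 11.8 on day 3, at 171, 166 and 108 in day 4 GFP-positive cells (log2-fold-change 3.99 ± 0.55, adjusted p = 4.96e-06) and back at 21.7, 14.4 and 16.4 on day 5 (log2-fold-change -3.002 ± 0.55, adjusted p = 0.000764). In GFP-negative cells it was at 31.4, 47.5 and 16.9 on day 4 and 15.5, 22.04 and 20.8 on day 5. The peak on day 4 stood above every other library of the series. The fall on day 5 was lost with a replicate block (adjusted p = 0.00124) and without any 1 of the 6 libraries (-2.88 to -3.21), and the day 4 gate difference was 2.27, adjusted p = 0.00556. Wnt7a was at 21.3, 9.73 and 8.11 on day 3, was listed at 0 in all 3 day 4 GFP-positive libraries and was at 6.25, 0 and 3 in GFP-negative cells. Wnt11, known for non-canonical signalling in gastrulation, was called in no comparison, with group means from 12.01 to 139 and values of 183, 106 and 127 in day 5 GFP-negative and 17.5, 29.6 and 14.8 in GFP-positive cells (-2.71, adjusted p = 0.00126), and 147 in day 0 replicate 1 against 19.7 and 23.4 in its mates.

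**Figure D2:**
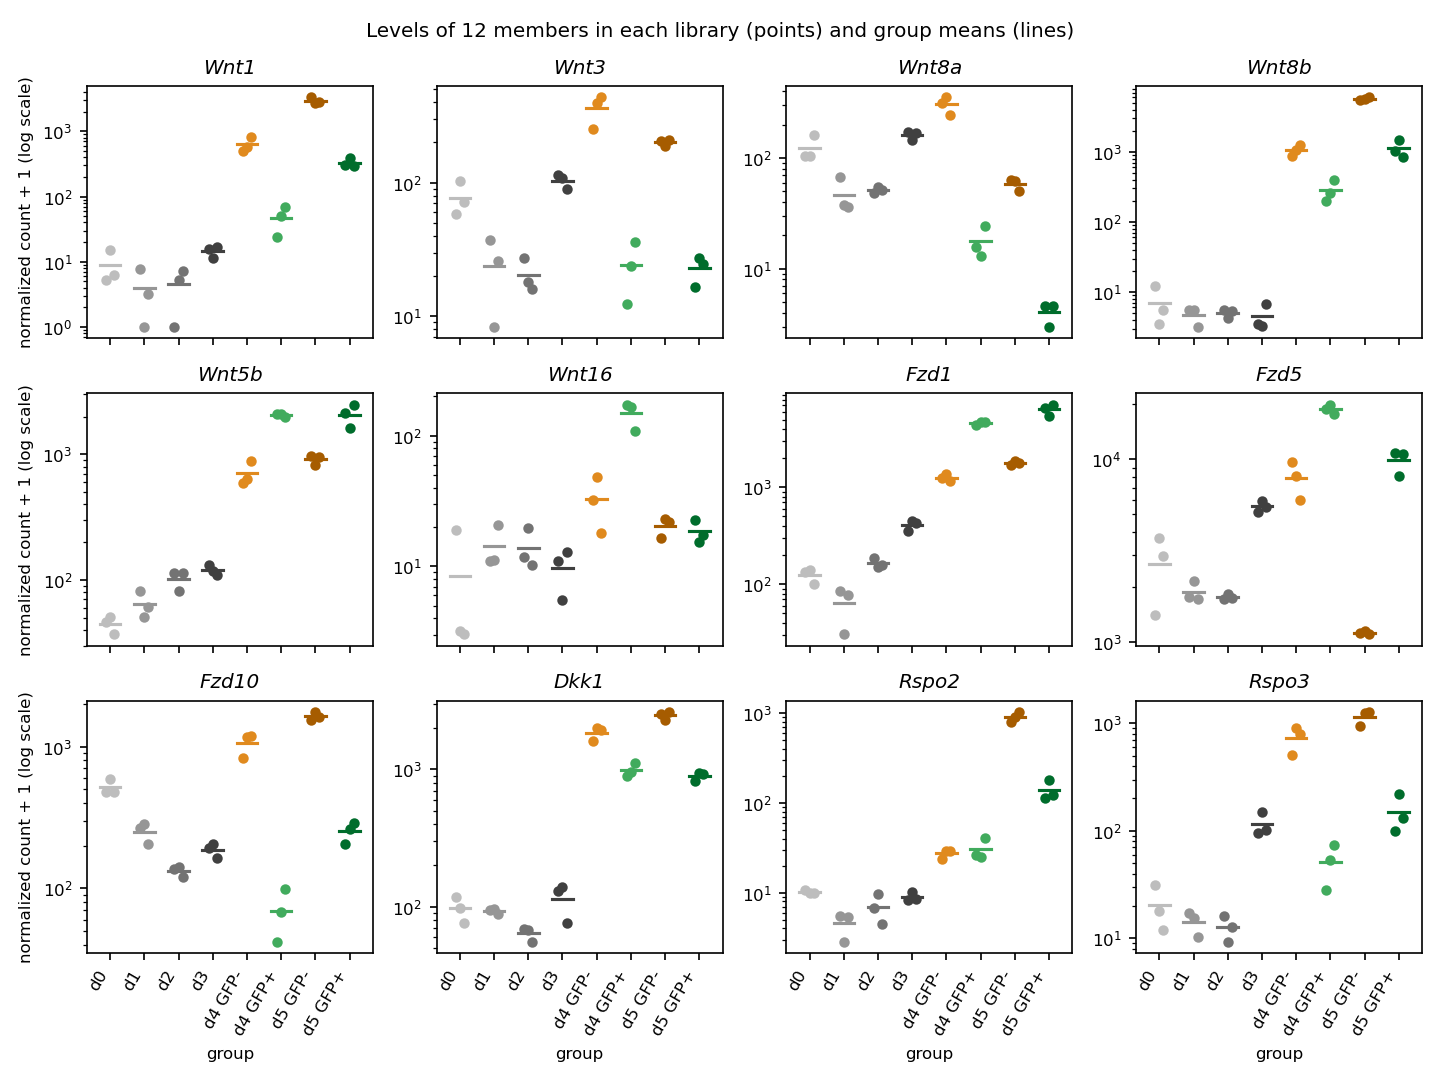
Normalized counts + 1 on a log scale for 12 members in each of the 24 libraries (points, replicates 1 to 3 from left to right within a group) with the mean of each group (lines). Wnt1 and Wnt8b climb in both gates and sit higher in GFP-negative cells, Wnt8a and Fzd10 separate the gates on day 4, Wnt16 peaks in day 4 GFP-positive cells, and Fzd5 stands at 8133 to 10859.5 in day 5 GFP-positive against 1099 to 1143 in GFP-negative cells. In GFP-positive cells the climb of Wnt1 was not called on day 4 or day 5, and that of Wnt8b from day 4 to day 5 was not called.

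The frizzled receptors changed places during the time course. Summed per kb of exon, Fzd7, a frizzled of pluripotent cells, made up 56.1% ± 1.6 (SD, n = 3) of the family on day 0 and 65.1% ± 2.4 on day 1. Its share was 45.8% ± 1.8 on day 3 and, among GFP-positive cells of day 4, 14% ± 0.62. Its own level went from 12141, 11719 and 11558 on day 2 to 5349, 5893 and 5861 in day 4 GFP-positive cells and was called in no comparison (-0.98, adjusted p = 4.9e-07 against day 3), with group means from 5396 to 11806. Fzd5 and Fzd2 took larger shares than Fzd7 in GFP-positive cells and Fzd1 one close below it, at 30.1% ± 1.1, 24.6% ± 1.2 and 12.2% ± 0.37 on day 4.

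Fzd5, a receptor with a known role in the eye field and optic cup, rose first in the whole organoid, from 1708, 1823 and 1736 on day 2 to 5170.2, 5929 and 5464 on day 3 (log2-fold-change 1.65 ± 0.23, adjusted p = 6.05e-05). On day 4 it reached 18784, 19862 and 17607 in GFP-positive cells (log2-fold-change 1.76 ± 0.23, adjusted p = 2.63e-06), with 9699.7, 8101 and 5975 in GFP-negative cells. All GFP-positive libraries were higher, but this difference was under the fold threshold (1.27, adjusted p = 0.000405). From day 4 to day 5 it fell in GFP-negative cells to 1114, 1143 and 1099 (log2-fold-change -2.80 ± 0.23, adjusted p = 1.09e-07), while GFP-positive cells held 10859.5, 8133 and 10684 (-0.93, adjusted p = 0.0104). The gate difference on day 5 was the highest of any member on either day (log2-fold-change 3.13 ± 0.23, adjusted p = 3.12e-09), and its share of the frizzleds was 18.7% ± 1.1 among GFP-positive against 3.01% ± 0.094 among GFP-negative cells. All the called changes of Fzd5 remained under every setting tried.

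Fzd1 was the only member called higher in GFP-positive cells against day 3, on day 4 and on day 5. It went from 134, 139 and 100.3 on day 0 to 356, 446 and 429.97 on day 3 (log2-fold-change 1.72 ± 0.25, adjusted p = 9.11e-06) and to 4449, 4696 and 4675 in day 4 GFP-positive cells (log2-fold-change 3.49 ± 0.25, adjusted p = 3.7e-10). GFP-negative cells rose less, to 1234, 1371 and 1155 (log2-fold-change 1.61 ± 0.25, adjusted p = 7.88e-05). The gates differed on day 4 (log2-fold-change 1.88 ± 0.25, adjusted p = 9.89e-06) and on day 5, at 6634, 5450.3 and 7099 against 1719, 1853 and 1783 (log2-fold-change 1.83 ± 0.25, adjusted p = 1.19e-05), with no overlap of libraries.

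Fzd4, which is also the receptor of Norrin in the retina, was at 316, 449.7 and 457 on day 3 and 4232, 4699 and 5269 in day 4 GFP-positive cells (log2-fold-change 3.55 ± 0.14, adjusted p = 9.29e-14), against 1514, 1691 and 1382 in GFP-negative cells (log2-fold-change 1.92 ± 0.14, adjusted p = 6.96e-09). The gates differed on day 4 (log2-fold-change 1.63 ± 0.14, adjusted p = 4.85e-08) and were not called on day 5, at 3232, 2951 and 3704 and 2184, 2343 and 2673 (0.46, adjusted p = 0.0332). Fzd8, a frizzled of the anterior neural plate, was called between the gates on day 5 and not on day 4. It rose from 262, 339 and 278 on day 0 to 1164, 1159 and 1023 on day 3 (log2-fold-change 1.93 ± 0.14, adjusted p = 5.91e-10). On day 4 the gates held 1753, 1895 and 1650.3 and 1346, 1291 and 1098 (0.51, adjusted p = 0.0154), and on day 5 2152, 1829.9 and 2209 and 600.5, 556 and 549.9 (log2-fold-change 1.85 ± 0.14, adjusted p = 4.46e-09), with every day 5 GFP-negative library below every day 4 one.

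Fzd10, a frizzled of the dorsal neural tube, went the other way and had the lowest gate difference of any receptor. It was at 192, 203 and 162 on day 3, at 827, 1163 and 1177 in day 4 GFP-negative cells (log2-fold-change 2.49 ± 0.23, adjusted p = 1.14e-07) and at 40.9, 66.9 and 97.03 in GFP-positive cells (log2-fold-change -3.997 ± 0.23, adjusted p = 9.32e-11). Fzd10 on day 5 stood at 1548, 1743 and 1617 and 204, 262 and 287 (log2-fold-change -2.71 ± 0.23, adjusted p = 1.76e-08), the GFP-positive cells having gained some from day 4 (log2-fold-change 1.93 ± 0.23, adjusted p = 5.87e-06). It was therefore low in GFP-positive cells on both days, and below day 3 on day 4 (log2-fold-change -1.51 ± 0.23, adjusted p = 1.7e-05), a call lost without day 3 replicate 1 or 2 or GFP-positive replicate 1 (-1.19 to -1.48).

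Fzd2, Fzd3, Fzd6 and Fzd9 were not called between the gates on either day. Fzd2 rose from 1167, 752 and 608 on day 0 to 6069, 5382 and 4823 on day 3 (log2-fold-change 2.73 ± 0.22, adjusted p = 2.09e-09). Fzd3, known for axon guidance, went from 682, 372 and 601 to 1858, 1660.1 and 1834 (log2-fold-change 1.74 ± 0.23, adjusted p = 3.19e-06) and on to 5366, 6755 and 6436 in day 4 GFP-positive cells (log2-fold-change 1.79 ± 0.23, adjusted p = 2.27e-06), and its call on day 3 was lost without day 0 replicate 2 (1.48). Fzd9 was at 117, 79.5 and 69.1 on day 3 and 279.8, 294 and 257 in day 4 GFP-positive cells (log2-fold-change 1.67 ± 0.22, adjusted p = 2.71e-06). Fzd6 was called in no comparison, with group means from 119 to 472.

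**Figure D3:**
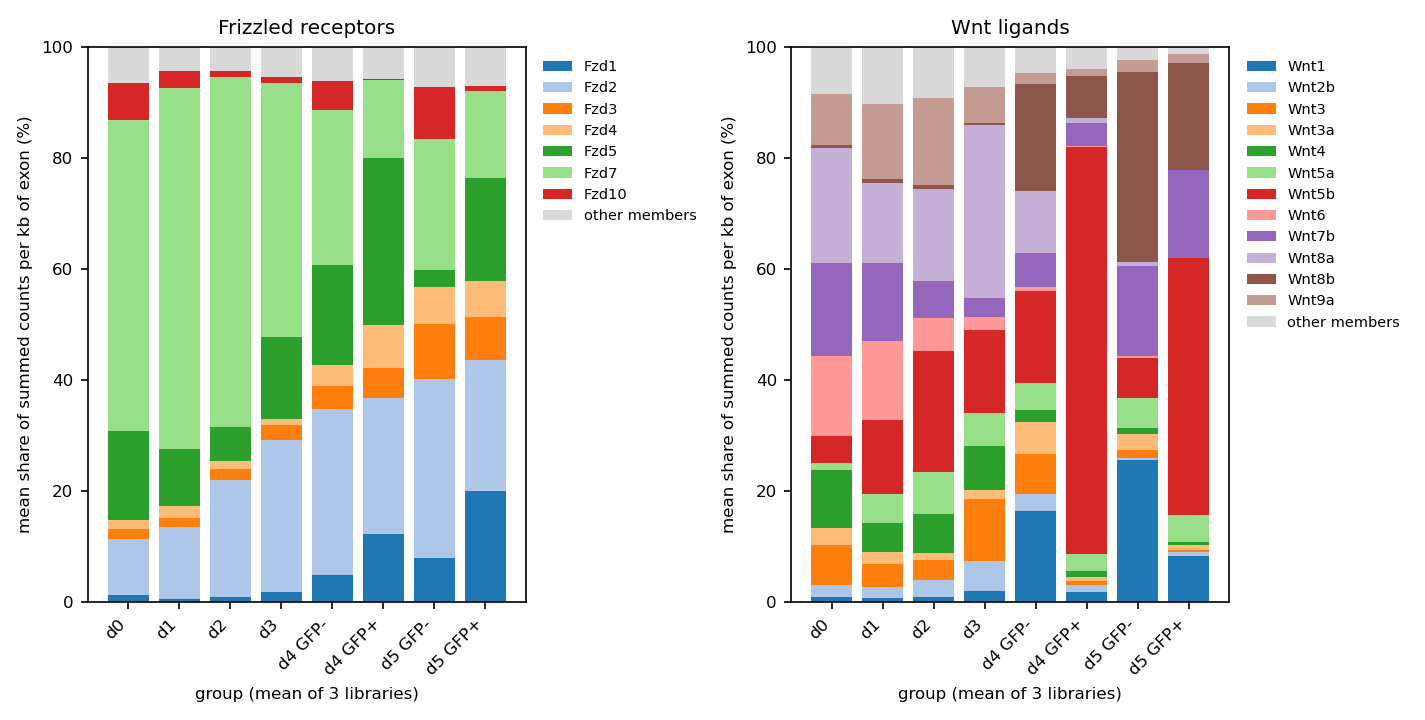
Stacked bars of the mean share of each frizzled (left) and each Wnt ligand (right) in the summed normalized counts per kb of exon of its family, in percent, for the 8 groups of 3 libraries. Members under 5% in every group are summed as other members. Fzd7 fills most of the frizzled bars on days 0 to 2, and Wnt5b fills most of the ligand bar in day 4 GFP-positive cells.

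Of the co-receptors and other receptors, only the Ror genes were called. Ror1, a receptor tyrosine kinase for Wnt5a, rose from 117, 186 and 173 on day 0 to 1208, 2095 and 1999 on day 3 (log2-fold-change 3.45 ± 0.22, adjusted p = 6.05e-11). On day 4 it stood at 2379.8, 2165 and 1645 in GFP-negative and 719.7, 765 and 761 in GFP-positive cells, a gap without overlap that stayed under the fold threshold (-1.44, adjusted p = 4.18e-05). Ror2 was at 996, 860.2 and 772 on day 3 and 2615, 3276 and 3437 in day 4 GFP-negative cells (log2-fold-change 1.82 ± 0.18, adjusted p = 2.66e-07), with 1815, 1871 and 1949.7 in GFP-positive cells. Lrp5, Lrp6 and Ryk were called in no comparison and kept group means of 3399 to 7665, 2733 to 4998 and 2774 to 4523.

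Of the 8 secreted antagonists tested, 2 rose on day 3 (Sfrp1 and Frzb), and 3 were higher than day 3 in each gate on day 4, namely Frzb and Dkk1 in both, Sfrp1 in GFP-positive and Sfrp5 in GFP-negative cells, where 0.714%, 3.33% and 2.00% of all tested genes rose. Sfrp1, an Sfrp of the optic vesicle, went from 1392, 1456 and 1456 on day 2 to 4411, 5265 and 5032 on day 3 (log2-fold-change 1.77 ± 0.09, adjusted p = 1.11e-10; log2-fold-change 2.55 ± 0.09, adjusted p = 2.32e-14 against 757, 937 and 823 on day 0) and to 17069.8, 18553 and 18788 in day 4 GFP-positive cells (log2-fold-change 1.89 ± 0.09, adjusted p = 9.48e-13). GFP-negative cells held 8607, 8579 and 8804. Every GFP-positive library was higher than every GFP-negative one on both days, but the differences (1.06, adjusted p = 2.91e-08 on day 4 and 0.89, adjusted p = 2.82e-07 on day 5) were under the fold threshold. Per kb of exon Sfrp1 made up 47% ± 1.2 of the antagonists in day 4 GFP-positive cells, where Sfrp2 held 25.6% ± 1.1 after 80% ± 3.8 on day 1. Sfrp2 itself was called in no comparison, with group means from 1653 to 7957 and values of 4910.2, 4969.7 and 4703 and 7823, 8135 and 7914 in GFP-positive cells on days 4 and 5.

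Frzb, also known as Sfrp3, had the widest rise of the antagonists. It was at 31.3, 32.7 and 80.8 on day 2, at 540.5, 649 and 433 on day 3 (log2-fold-change 3.58 ± 0.53, adjusted p = 0.000107) and at 6149, 6125 and 6163 in day 4 GFP-positive cells (log2-fold-change 3.52 ± 0.53, adjusted p = 1.54e-05). GFP-negative cells held 4483, 5601 and 5623 on day 4 (log2-fold-change 3.28 ± 0.53, adjusted p = 0.000124), so both gates had gained it. On day 5 it was at 1961, 2358 and 1955 in GFP-positive and 3463, 3442 and 3309.96 in GFP-negative cells (-0.71, adjusted p = 0.449). The rise over days 0 to 3 (log2-fold-change 4.37 ± 0.53, adjusted p = 8.85e-07) was 5.28 without day 0 replicate 1, which held 89.8 against 13.5 and 12.1 in its mates. The day 3 rise was lost without day 2 replicate 1 or 2 or day 3 replicate 2 (3.35 to 3.44), and the day 4 rise in GFP-negative cells without day 3 replicate 3 or GFP-negative replicate 2 or 3 (3.13 to 3.23).

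Dkk1, the Lrp antagonist needed for head formation, was at 128, 138 and 74.9 on day 3 and rose in both gates on day 4. GFP-negative cells reached 1598, 2016 and 1924 (log2-fold-change 4.05 ± 0.19, adjusted p = 9.25e-12) and GFP-positive cells 888, 954 and 1112 (log2-fold-change 3.15 ± 0.19, adjusted p = 3.16e-11). GFP-negative libraries were higher on both days without overlap, and on day 5 the values were 2539, 2302 and 2601 and 826, 935 and 922 (-1.47, adjusted p = 6.58e-06), just under the fold threshold. Dkk3, a divergent relative with no established place in the pathway, rose in GFP-positive cells on day 5, from 226, 221 and 275 to 1032, 936 and 1135 (log2-fold-change 2.10 ± 0.21, adjusted p = 5.55e-07). It then stood above GFP-negative cells at 385, 305 and 366 (log2-fold-change 1.56 ± 0.21, adjusted p = 8.14e-06), a call lost without GFP-negative replicate 2 or GFP-positive replicate 3 (1.45 to 1.49).

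Sfrp5 rose in day 4 GFP-negative cells, from 47.6, 45.3 and 29.3 on day 3 to 124, 144 and 192 (log2-fold-change 1.89 ± 0.25, adjusted p = 1.18e-05), with 66.02, 62.3 and 55.8 in GFP-positive cells. It fell on day 5 to 51.99, 45.6 and 59.9 (log2-fold-change -1.51 ± 0.25, adjusted p = 0.000326) and 14.6, 11.9 and 8.14 (log2-fold-change -2.35 ± 0.25, adjusted p = 1.68e-06), and the gates then differed (log2-fold-change -2.12 ± 0.25, adjusted p = 1.78e-06). The fall in GFP-negative cells was lost without any 1 of 5 of the 6 libraries, all but day 4 replicate 1 (-1.34 to -1.61). Dkk2 and Wif1 were called in no comparison, with group means from 0.682 to 18.9 and from 4.83 to 28.4, and Dkk4 lay at 0 to 2.79 over all libraries.

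Rspo1 held the largest mean share of the R-spondins per kb of exon in every group, with 97.2% ± 0.56 (SD, n = 3) on day 2 as its highest and 41.1% ± 7.9 among the GFP-negative cells of day 5 as its lowest. In the GFP-negative cells Rspo3 came close to it, at 46.9% ± 9.4 against 46.9% ± 9.5 on day 4 and 38.7% ± 6.5 on day 5. Rspo1 was the only member to rise on day 1, from 62.1, 101 and 94.2 on day 0 to 518, 253 and 322 on day 1 (log2-fold-change 2.04 ± 0.28, adjusted p = 5.13e-05), and was at 751, 704 and 623 on day 3 (log2-fold-change 3.03 ± 0.28, adjusted p = 1.78e-08). Without day 0 replicate 1 the first of these changes was 1.83 and was still called, but it was lost with only days 0 and 1 in the fit (adjusted p = 0.0982). On day 5 Rspo1 was at 915, 590.1 and 796 in GFP-negative and 175, 331 and 134 in GFP-positive cells (log2-fold-change -1.92 ± 0.28, adjusted p = 2.49e-05).

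Rspo3, an R-spondin of the primitive streak and the roof plate, rose on day 3 from 15.2, 8.28 and 11.7 to 94.1, 147 and 100.03 (log2-fold-change 3.18 ± 0.39, adjusted p = 1.29e-05; log2-fold-change 2.58 ± 0.39, adjusted p = 1.33e-05 against 30.2, 16.8 and 10.9 on day 0). On day 4 it stood at 502, 904 and 794 in GFP-negative cells (log2-fold-change 2.66 ± 0.39, adjusted p = 3.61e-05) and 26.97, 52.1 and 72.5 in GFP-positive cells (log2-fold-change -3.90 ± 0.39, adjusted p = 2.15e-07). On day 5 the values were 935, 1235 and 1265 and 98.3, 219 and 131 (log2-fold-change -2.998 ± 0.39, adjusted p = 5.74e-06). The gates did not overlap on either day, and the calls of Rspo3 remained under every setting tried, except that against day 0, which was lost when only those 2 groups entered the fit.

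Rspo2 rose on days 4 and 5. It was at 7.33, 9.12 and 7.6 on day 3, at 22.9, 28.4 and 28.1 in day 4 GFP-negative (log2-fold-change 1.61 ± 0.31, adjusted p = 0.000736) and 24.997, 23.8 and 39.5 in GFP-positive cells (log2-fold-change 1.72 ± 0.31, adjusted p = 0.000123). On day 5 it reached 796, 899.9 and 1024 in GFP-negative cells (log2-fold-change 5.04 ± 0.31, adjusted p = 1.32e-09) and 113, 179 and 120.3 in GFP-positive cells (log2-fold-change 2.19 ± 0.31, adjusted p = 5.02e-05). The gates overlapped on day 4 and were far apart on day 5 (log2-fold-change -2.74 ± 0.31, adjusted p = 1.04e-06). The small rise on day 4 was lost with a replicate block (adjusted p = 0.00143) and without any 1 of the 6 libraries in GFP-negative cells (1.55 to 1.70) and without GFP-positive replicate 3 in GFP-positive cells (1.50). Rspo4 was called over days 0 to 3 alone, from 11.2, 7.59 and 7.1 on day 0 to 53.7, 37.5 and 30.3 on day 3 (log2-fold-change 2.09 ± 0.29, adjusted p = 6.35e-06).

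Lgr4 made up most of the Lgr receptors per kb of exon in every group, from 85% ± 0.76 in day 5 GFP-negative cells to 99.1% ± 0.14 on day 1. It was at 3560.2, 2764 and 4347 in day 5 GFP-positive and 1002, 1343 and 1349.8 in GFP-negative cells (log2-fold-change 1.52 ± 0.19, adjusted p = 4.13e-06), a call lost without GFP-negative replicate 1 or GFP-positive replicate 3 (1.36 to 1.38). Lgr5, a marker of several epithelial stem cells, rose from 4.14, 9.25 and 11.2 on day 0 to 28.2, 60.5 and 49.7 on day 3 (log2-fold-change 2.38 ± 0.40, adjusted p = 5.89e-05) and in GFP-positive cells from 185, 106 and 132 on day 4 to 743, 656 and 726 on day 5 (log2-fold-change 2.36 ± 0.40, adjusted p = 0.000406). The later rise was lost without any 1 of 5 of the 6 libraries, all but day 4 replicate 1 (2.17 to 2.41). Lgr6 was at 79.1, 51.7 and 44.9 on day 3, at 13.02, 7.28 and 12.1 in day 4 GFP-positive cells (log2-fold-change -2.33 ± 0.34, adjusted p = 1.29e-05) and at 45.7, 35.99 and 44.8 in GFP-negative cells (log2-fold-change -1.90 ± 0.34, adjusted p = 0.000392), the gate call being lost without any GFP-negative library or without GFP-positive replicate 2 or 3 (-1.66 to -2.01).

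Of the genes that process the ligands, Porcn fell as the stem cells left day 0. It was at 2375, 2030.1 and 2099.6 on day 0, at 629.6, 802 and 552 on day 1 (log2-fold-change -1.73 ± 0.15, adjusted p = 2.53e-07) and at 163, 212 and 215 on day 2 (log2-fold-change -1.74 ± 0.15, adjusted p = 1.03e-07), and was still low on day 3, at 271, 255 and 211 (log2-fold-change -3.14 ± 0.15, adjusted p = 1.02e-12). Wls rose instead, from 887, 131 and 148 on day 0 to 1513, 1618 and 1592 on day 3 (log2-fold-change 2.60 ± 0.43, adjusted p = 3.97e-05). Day 0 replicate 1 again stood apart from its mates, and without it the rise of Wls was 3.49, while with only days 0 and 3 in the fit the call was lost (adjusted p = 0.0316). The day 1 call of Porcn was likewise lost with only days 0 and 1 in the fit (adjusted p = 0.0314). Neither gene was called between the gates, where Wls was at 9363, 10397 and 10212 in day 5 GFP-negative and 5847, 6276 and 5239 in GFP-positive cells (-0.79, adjusted p = 0.256) and Porcn at 610.4, 678 and 659.9 and 385, 349 and 357 (-0.83, adjusted p = 0.000288).

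**Figure D4:**
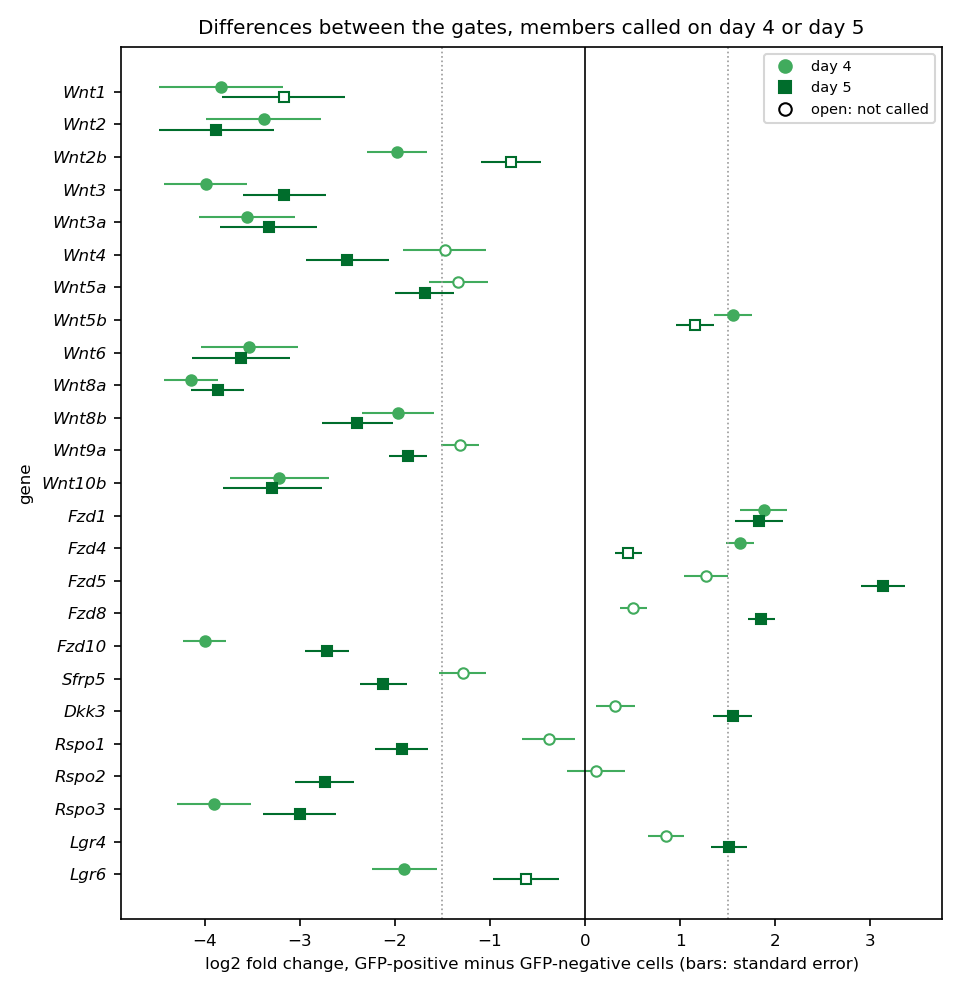
Log2-fold-change between the gates (GFP-positive minus GFP-negative) on day 4 (circles) and day 5 (squares) with standard errors, for the 25 members called on at least 1 of the days. Filled symbols were called, open ones were not, and dotted lines mark 1.5 in each direction. 9 members lie to the left and filled on both days, and Fzd1 alone lies to the right and filled on both.

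Across both days, 9 members were called lower in GFP-positive cells on both days, namely Wnt2, Wnt3, Wnt3a, Wnt6, Wnt8a, Wnt8b, Wnt10b, Fzd10 and Rspo3, and 1, Fzd1, was called higher on both, where 2.67% of all tested genes were lower and 0.119% higher on both. With only the gates of a day in the fit, Wnt2, Wnt3, Wnt6, Wnt8b and Wnt10b lost the call on day 4, and Wnt2 and Wnt6 also that on day 5. With quantile normalization Wnt8b lost it on day 4 and Wnt3a on day 5. Of the 18 ligands tested, 9 were lower and 1 was higher on day 4, and 10 were lower and 0 higher on day 5. Of the 10 frizzleds, 2 were higher and 1 was lower on day 4, and 3 were higher and 1 was lower on day 5. The shares of all tested genes were 3.63% lower and 0.328% higher on day 4, and 4.61% and 0.400% on day 5. Wnt3, Wnt6, Wnt8a and Fzd10 were also below day 3 in day 4 GFP-positive cells. No member was called in opposite directions on the 2 days. The change of the gate difference from day 4 to day 5 was tested in the same fit, and 0 of the 50 members were called, with 17 at an unadjusted p under 0.05, as were 9.40% of all tested genes (of all tested genes 0.0762% were called with a rising and 0.0333% with a falling difference). At an adjusted p under 0.05 and any fold, 3 members gained and 3 lost, where 0.528% of all tested genes gained and 0.571% lost.

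Other genes of the pathway were counted from lists by role, with 7 genes on 2 lists (Apcdd1, Axin2, Lef1, Notum, Rnf43, Tcf7 and Znrf3). They can be read against the same shares of all tested genes. Of 14 known targets of beta-catenin with feedback or patterning roles, 5 were lower and 0 higher in GFP-positive cells on day 4 (Notum, Axin2, Sp5, T and Cdx2), with a median log2-fold-change of -1.23 over the 14. On day 5, 7 were lower and 0 higher, with Apcdd1 and Cdx4 in addition and a median of -1.38. Axin2, which is induced by beta-catenin in many tissues, was at 3509.6, 4125 and 4693 in GFP-negative and 1081, 1206 and 1615 in GFP-positive cells on day 4 (log2-fold-change -1.67 ± 0.21, adjusted p = 4.46e-06), and at 7054, 6558 and 6366 and 1914, 2232 and 1812 on day 5 (log2-fold-change -1.75 ± 0.21, adjusted p = 2.04e-06). Every GFP-negative library of Axin2 was above every GFP-positive one on both days. Sp5, a repressor of the same pathway, went from 1446, 2135 and 2267 to 113, 119.96 and 189.8 between the gates on day 4 (log2-fold-change -3.79 ± 0.44, adjusted p = 1.87e-06). T and the Cdx genes are also markers of the primitive streak and the posterior axis. T is itself on the list of mesendoderm markers used here. The others on that list, Mixl1, Eomes, Gsc, Foxa2, Sox17 and Mesp1, were also called lower on both days.

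Of 27 cytoplasmic and nuclear transducers, among them Dvl, Apc, Gsk3 and Tcf genes, 0 were higher and 1 lower on day 4 (Axin2) and 0 higher and 2 lower on day 5 (Axin2 and Tle2), with medians of 0.14 and 0.15. Of 8 core genes of planar cell polarity 0 were called by limma on either day, with 5 at an unadjusted p under 0.05 on each day, as were 25.7% and 26.3% of all tested genes, and with medians of -0.34 and -0.42. Of 23 further extracellular and membrane modulators, 1 was higher and 3 were lower on day 4, and 1 was higher and 6 lower on day 5. The higher one on both days was Shisa2, which holds back frizzled maturation, at 25664, 23092 and 29039 in GFP-positive and 2418, 2448 and 2317 in GFP-negative cells on day 5 (log2-fold-change 3.43 ± 0.20, adjusted p = 9.92e-11). Cer1, a secreted antagonist of the anterior endoderm, was lower, at 20.5, 43.03 and 45.5 in GFP-positive and 458, 603 and 407 in GFP-negative cells on day 4 (log2-fold-change -3.78 ± 0.47, adjusted p = 3.94e-06).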

How the data were processed

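The authors sorted live cells from dissociated organoids, made TruSeq libraries of polyA RNA and pseudo-aligned the reads with kallisto (0.43.1 in the submitters' processing notes) to Ensembl transcripts of mm10. The authors deposited a normalized signal per gene, namely the estimated counts divided by DESeq2 size factors. The version of that tool and whether counting used strand are not given in the sources used here, and reads shared by similar genes could be split. The table also holds the authors' calls of genes that change between groups or stay stable, which were not used. Whole reads could not be recovered, since 45.5% to 76.8% of low values lay within 0.1 of a whole multiple of 1 read, so no count model was fitted.

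From these values, log2(value + 1) of the 21005 genes that reached 10 in 3 or more of the 24 libraries was fitted in R 4.3.3 by limma 3.58.1 (moderated statistics with a mean-variance trend), with group as the only term and Benjamini-Hochberg adjustment over all genes within each of 11 comparisons. Genes were called past a log2-fold-change of 1.5 in either direction if the adjusted p was also below 0.001. The study describes the 3 libraries of a group as biological triplicates of organoid cultures, and both gates of a day as sorted from the same collections. Whether the triplicates were separate differentiations is not given in the sources used here, and p-values measure the spread between these samples. Levels were compared between genes only per kb of the GENCODE M21 exons of each gene. The procedure was tested on simulated data. Members and gene lists were chosen with earlier results of these data known. All members are accounted for: those called in at least 1 comparison with their values per library in the groups concerned, the others by the range of their group means. Alternatives were other pseudocounts, filters and thresholds, quantile normalization, no trend, a replicate block, a fit of only the groups compared and leaving out each library. Promoters came from RefSeq (GRCm38.p6), and exons from GENCODE M21, whose coordinates equal those of the table for 147 of 149 listed genes. Other assays of the study were not used here.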

Additional observations from a re-analysis of the deposited data

Results flagged for a closer look

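The gate difference changed between day 4 and day 5 for 6 members at an adjusted p under 0.05 for the change itself (limma, Benjamini-Hochberg over all tested genes), though none passed both thresholds used for calls. Of all tested genes 0.528% gained and 0.571% lost at that limit. Fzd8 gained by log2-fold-change 1.35 ± 0.20, adjusted p = 0.000857, from a gate difference of 0.51 on day 4 to 1.85 on day 5. Fzd5 gained likewise (log2-fold-change 1.86 ± 0.33, adjusted p = 0.00409), from 1.27 to 3.13, with GFP-negative cells falling from 5975 to 9699.7 to 1099 to 1143 normalized counts and GFP-positive cells at 17607 to 19862 and 8133 to 10859.5. For Dkk3 the change was also upward (log2-fold-change 1.23 ± 0.29, adjusted p = 0.0376), from 0.32 to 1.56, and here the GFP-positive cells went from 221 to 275 to 936 to 1135.

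Downward changes were found for Rspo2, Fzd4 and Fzd9. Rspo2 had the widest of the 6 (log2-fold-change -2.85 ± 0.44, adjusted p = 0.00121), from 0.12 on day 4 to -2.74 on day 5. Fzd4 went from 1.63 to 0.46 (log2-fold-change -1.17 ± 0.20, adjusted p = 0.00399). Fzd9 changed sign, from 0.33 to -0.99 (log2-fold-change -1.32 ± 0.31, adjusted p = 0.0372), with 542, 457 and 551 in day 5 GFP-negative and 255, 226 and 304 in GFP-positive cells. No test for single outlying values was applied to groups of 3 libraries, and day 0 replicate 1 was singled out by its rank correlations alone.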

How the results depend on the processing

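No member change reversed its direction under any setting, and of the 112 called changes 54 remained under every one, 54 were lost under at least 1 setting other than leaving out a library (50 of them with only the groups compared) and 29 without at least 1 library. The share of all tested genes called was not counted under the alternative settings. The counts of members given here thus show only how far the calls depend on the settings. With only the groups compared, the members called were 0 between days 0 and 1, 6 between days 0 and 3, 7 between the gates on day 4, 2 from day 4 to day 5 in GFP-positive cells and 2 for the change of the gate difference. With an adjusted p under 0.05 and a log2-fold-change above 1, they were 12 between days 0 and 1, 8 between days 1 and 2, 15 between days 2 and 3, 26 between days 0 and 3, 25 between the gates on day 4, 15 and 17 from day 4 to day 5 in GFP-positive and GFP-negative cells, and 6 for the change of the gate difference. Quantile normalization gave 2 between days 1 and 2, and a pseudocount of 5 or no trend gave 1 for the change of the gate difference. Quantile normalization moved the median of all genes by at most 0.0822 on the log2 scale. It ended 14 of the 112 calls, no filter on low values 7 and no trend 4. Leaving out 1 library gave 2 to 4 members between days 0 and 1 (4 without day 1 replicate 1), 1 to 4 between days 1 and 2 (4 without day 1 replicate 1 or 3, 2 without day 0 replicate 1) and 3 to 8 between days 2 and 3 (3 without day 2 replicate 1 or 2 or day 3 replicate 2). It gave 4 to 8 from day 4 to day 5 in GFP-negative cells (4 without day 4 replicate 2, 5 without any day 5 library) and 0 to 2 for the change of the gate difference (2 without day 0 replicate 1). Without day 0 replicate 1, whose values stand apart, the counts were 17 between days 0 and 3, 17 and 23 between the gates on days 4 and 5 and 8 between days 2 and 3. With a replicate block the 11 counts were 2, 1, 5, 16, 19, 16, 14, 21, 7, 7 and 0 in the order of the comparisons, within 1.5 times of those without it. The block ended 5 calls, of Wnt3 (day 3), Rspo2 and Wnt8b (day 4), and Wnt16 and Wnt5a (day 5), and no other. Between the gates on day 5 it gave 21 members against 20 without it, so there a call was gained. Deviations from the group means correlated at -0.000542 on average between libraries of the same number. In 1 of 28 pairs of groups, day 3 and day 5 GFP-negative cells, which were not compared, all 3 same-numbered pairs were over 0.1 (0.133 to 0.401). The range was -0.108 to 0.0227 between the gates on day 4 and -0.0750 to 0.147 on day 5, so the numbers were not taken to pair the libraries compared. About 10 normalized counts rest on about 10 reads, which limits the 12 tested members under 10 in a whole group: Dkk2, Rspo2, Wif1, Wnt1, Wnt10b, Wnt2, Wnt3a, Wnt6, Wnt7a, Wnt8a, Wnt8b and Wnt9b. A pseudocount of 0.5 or 5 ended 12 of the 112 calls.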

Other observations

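Summed over the 19 ligands per kb of exon, the level was 330.2 to 359 on day 0, 166 to 187 on day 1, 160 to 191 on day 2 and 275 to 347 on day 3. In the sorted cells of day 4 it was 1322 to 1902 (GFP-negative) and 1007 to 1087 (GFP-positive). On day 5 it stood at 4659 to 4974 in GFP-negative and 1653 to 1733 in GFP-positive cells. The frizzled sum went the other way between the gates, at 5812 to 6533 in GFP-negative and 8785 to 9388 in GFP-positive cells on day 4, and at 5226 to 5465 and 6667 to 8344 on day 5. The antagonist sum was 5787 to 6416 in GFP-negative and 8556 to 8959 in GFP-positive cells on day 4, and 6401 to 6841 and 9042 to 9380 on day 5. None of these sums overlapped between the gates. The sums rest on few genes: Wnt5b alone gave 73.5% ± 4.8 (SD, n = 3) of the ligand sum in day 4 GFP-positive cells, and Wnt8b and Wnt1 gave 34.2% ± 2.1 and 25.5% ± 2.1 in day 5 GFP-negative cells. These sums were computed after the values had been seen and were not tested.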
